A study of Mus musculus with 12 samples.

Results

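The comparison set double-negative thymocytes of NHD13 transgenic mice (3 arrays, replicates 1 to 3) against those of wild-type mice (3 arrays, wild-type replicates 4 to 6), which is 6 of the 12 Illumina MouseWG-6 v2.0 arrays of the series. The other 6 arrays held NHD13 transgenic, Lyl1 knockout cells and wild-type replicates 1 to 3. All mice were C57 BL/6 and 2 to 3 months old, and 300 ng of total RNA from sorted CD4-CD8 thymocytes was labelled for each array. Wild-type replicates 4 to 6 were chosen because their background resembled that of the NHD13 arrays: the log2 levels of undetected probes had an SD of 0.145 to 0.162 on the NHD13 arrays and 0.133 to 0.148 on these wild-type arrays, against 0.0708 to 0.0958 on the other 6. Of 45281 probes, 17885 were detected (detection p-value under 0.05) on at least 3 of the 6 arrays, and the probes with a symbol among them stood for 9494 genes, each by its brightest probe. The labels name neither the promoter that drives the transgene nor a number of animals; the NHD13 mouse line in general use is driven by regulatory elements of Vav1, which act across blood cells. Whether each array stands for its own mouse is not said, so every p-value here reflects array-to-array spread that may be partly or wholly technical.

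NHD13 is the fusion of NUP98, a protein of the nuclear pore, with the homeodomain protein HOXD13, and was first known from human myeloid leukaemia. Double-negative thymocytes are the earliest cells of the thymus: they enter as progenitors, commit to the T lineage under Notch signals, rearrange the T-cell receptor genes with the RAG recombinase, and then divide rapidly once the pre-T-cell receptor signals. HOX genes, Lyl1 and Lmo2 belong to the programme of blood stem and progenitor cells that is normally switched off in the course of T-cell commitment.

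The labels were checked first. Lyl1, the basic helix-loop-helix factor in the title of the study, had log2 levels of 11.42, 11.43 and 11.34 on the NHD13 arrays and 7.68, 7.69 and 7.09 on the wild-type arrays, and the groups did not overlap (log2 change 3.91 ± 0.20 SE, adjusted p = 2.32e-04, limma with Benjamini-Hochberg adjustment, as are all adjusted p-values here). Lmo2, a LIM-only partner of Lyl1, read 11.01, 11.92 and 12.09 on the NHD13 arrays and 7.21, 7.60 and 7.38 on the wild-type arrays (4.28 ± 0.30 SE, adjusted p = 4.79e-04). The fusion transcript was not read separately from its parent genes. The probe of Hoxd13 was detected on none of the 6 arrays, and the brightest Nup98 probe read 8.12, 7.79 and 8.43 on the NHD13 arrays and 8.71, 8.32 and 8.75 on the wild-type arrays (log2 change -0.48, adjusted p = 0.154). The T-lineage identity of both groups was plain in the CD3 chain Cd3e, which read 13.83, 13.50 and 13.59 on the NHD13 arrays and 13.56, 13.64 and 13.68 on the wild-type arrays. The Cd8a probes were detected on no array. The probes of Cd8b1, the other CD8 chain, singled out after their values were seen, went opposite ways: the brightest read 13.14, 13.68 and 12.85 on the NHD13 arrays and 12.52, 12.33 and 12.60 on the wild-type arrays (adjusted p = 0.0628), while another read 7.24, 7.91 and 6.31 on the NHD13 arrays and 12.60, 12.58 and 12.88 on the wild-type arrays (adjusted p = 4.79e-04).

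Across the transcriptome, 4066 of the 17885 probes were called at an adjusted p under 0.05 (22.7%), 1941 of them higher (10.9%) and 2125 lower (11.9%) in NHD13 cells. By gene, 2380 of 9494 were called (25.1%), 1163 higher (12.2%) and 1217 lower (12.8%). Among these, 665 were more than 2-fold higher and 573 more than 2-fold lower by the fitted change, and 193 and 110 passed 4-fold. Of all 9494 genes, 2097 had every NHD13 array above every wild-type array and 2465 every NHD13 array below. All 2380 called genes were among them, so groups that do not overlap add no support to a call. Among the lists, 22 of 24 measured interferon-response genes, 11 of 18 MHC class I genes, 8 of 13 progenitor transcription factors and 9 of 21 JAK-STAT genes were called higher in NHD13 cells. Called lower were 33 of 43 replication, 21 of 35 mitosis, 13 of 32 ribosome biogenesis, 13 of 30 mitochondrial ribosome and 8 of 16 cholesterol synthesis genes, and with them the recombinase gene Rag1 and the pre-T-cell receptor gene Ptcra. The median log2 change of all genes was -0.05, so list medians can be read against a value near 0. Under median scaling instead of quantile normalization it was 0.13, and 1314 genes were called higher and 496 lower, which makes 72.6% of the calls higher, against 48.9% in the main setting. The count of calls depended on single arrays: it was 1493 without NHD13 replicate 2, 1404 without NHD13 replicate 3, 584 without wild-type replicate 4, 1077 without wild-type replicate 5, 549 without wild-type replicate 6, and 3324 without NHD13 replicate 1. Below, a call is said to hold where it passed the threshold each time 1 of the 6 arrays was left out. A gene detected in only 1 group drops below the detection filter when an array of that group is left out and has no value there.

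**Figure D1:**
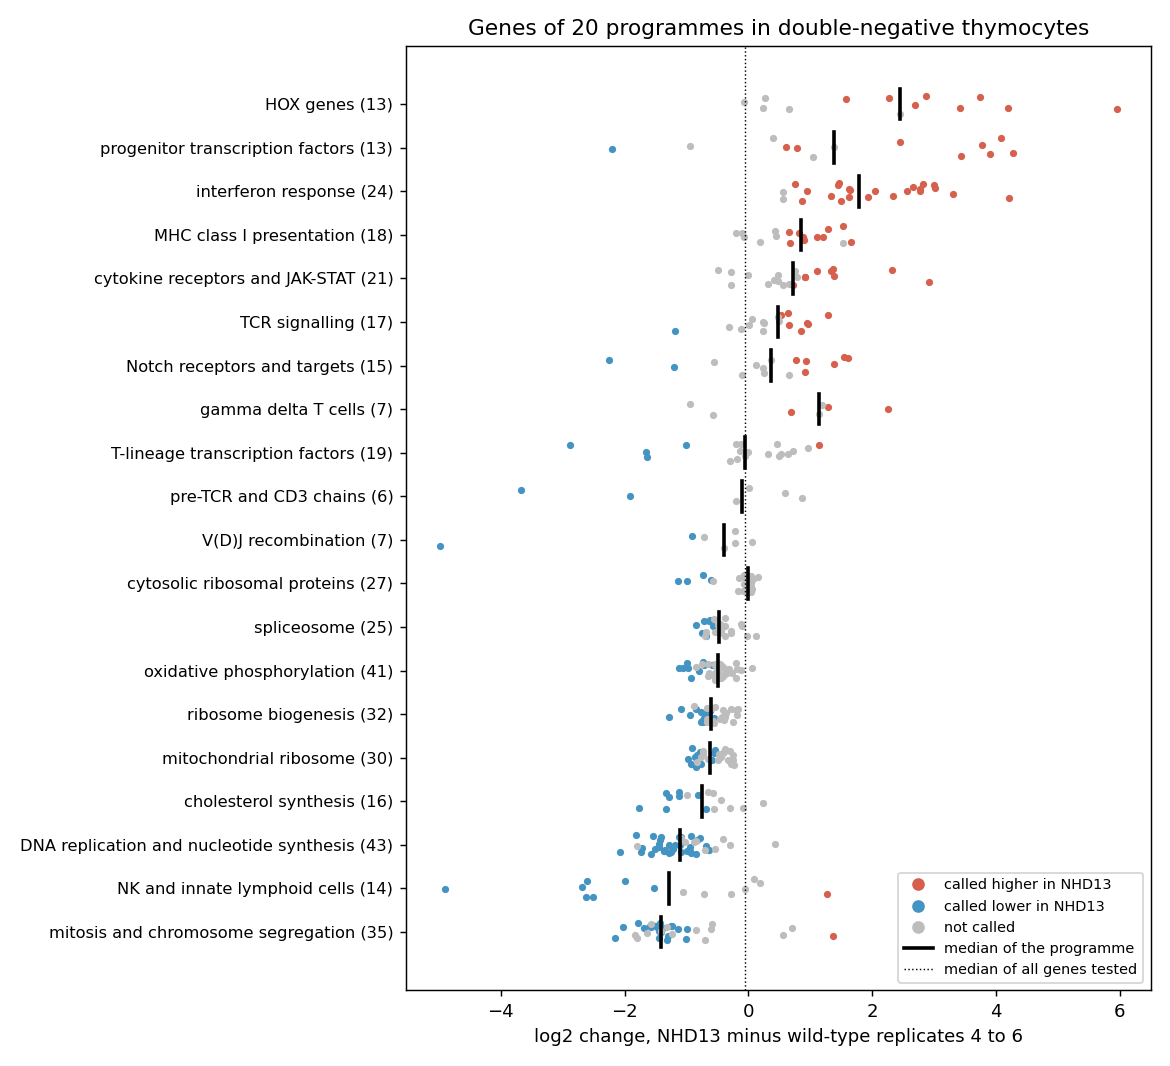
Log2 change (NHD13 minus wild-type replicates 4 to 6) of each measured gene in 20 gene lists, 1 point a gene, with the number measured in brackets; red points were called higher, blue called lower and grey not called, the thick bar is the median of the list and the dotted line the median of all genes tested. The HOX and interferon points lie mostly to the right of 0, and those of replication, mitosis and the mitochondrial ribosome mostly to the left.

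The 3 NHD13 arrays were less alike than the 3 wild-type arrays, with correlations of 0.947 to 0.958 among NHD13 arrays and 0.980 to 0.990 among wild-type arrays over the kept probes. Markers of other cells were among the genes that varied. Of the 14 measured neutrophil and monocyte markers, only Ctsg, a granule protease, was called higher, and the summed linear level of the markers ran from 8471 to 65925 on the NHD13 arrays and from 11955 to 28887 on the wild-type arrays, with Itgam, Cd14 and Ms4a3 detected on no array. With all 12 arrays in one fit Ctsg was not called (adjusted p = 0.478). S100a8, a calcium-binding protein of neutrophils, read 10.76, 14.09 and 7.82 on the NHD13 arrays and 12.12, 13.15 and 11.45 on the wild-type arrays, so NHD13 replicate 2 was the highest array and NHD13 replicate 3 the lowest. The 8 measured markers of dendritic cells and MHC class II gave 0 calls by limma and 1 at an unadjusted p under 0.05 (background 25.1%), and their sums overlapped (5278 to 15365 on NHD13 arrays, 7576 to 11658 on wild-type arrays). Immediate early genes set NHD13 replicate 3 apart: Fos, an AP-1 subunit, read 6.29, 6.35 and 12.73 on the NHD13 arrays and 10.08, 10.10 and 11.01 on the wild-type arrays. The part of these cells and signals in the results below was not tested. In bulk samples, fewer cells of a type and less RNA per cell cannot be told apart.

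**Figure D2:**
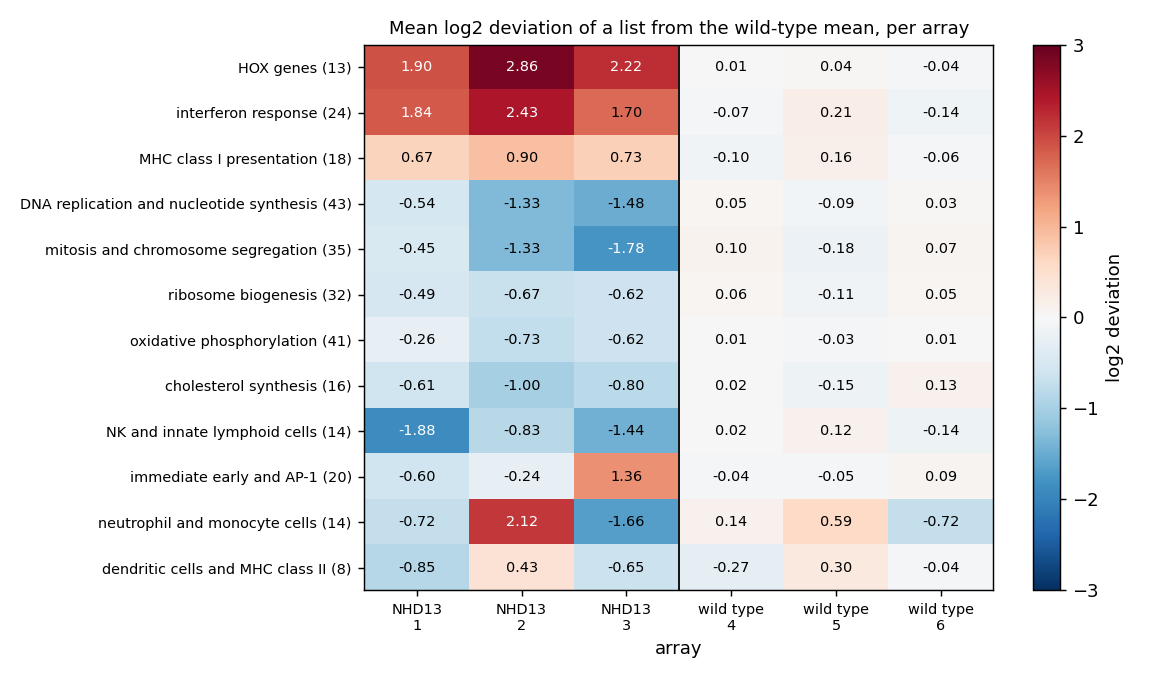
Mean log2 deviation of the measured genes of 12 lists from the wild-type mean, for each NHD13 array (left 3 columns) and each wild-type array (right 3 columns); red is above and blue below the wild-type mean. Every NHD13 array is above 1.5 for HOX and interferon genes and below 0 for replication and mitosis, whereas the neutrophil and immediate early lists differ in sign among the NHD13 arrays.

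HOX genes of the A, B and C clusters were higher in NHD13 cells, several of them undetected in wild-type cells. Of 36 HOX genes, 35 had a probe, and 13 passed the detection filter, 5 of them detected on all NHD13 arrays and no wild-type array. These 5 passed through the group in which they were high, so the list's 8 calls, all higher, and its median of 2.46 describe those 13 genes and not the family. Leaving out any NHD13 array left 4 calls among the 7 or 8 genes still detected, and 5 were called without wild-type replicate 4 or 6. Hoxa7 read 12.70, 12.46 and 12.65 on the NHD13 arrays and 8.82, 9.13 and 8.65 on the wild-type arrays, without overlap (3.74 ± 0.18 SE, adjusted p = 2.15e-04). Hoxa5 read 10.93, 11.86 and 12.03 on the NHD13 arrays and 7.33, 7.46 and 7.45 on the wild-type arrays (4.19 ± 0.29 SE, adjusted p = 4.79e-04). Both were thus measured in wild-type double-negative cells and were more than 10-fold higher with the fusion. Hoxc6 read 8.72, 11.63 and 12.24 in NHD13 cells and was undetected in wild-type cells, which makes it at least 34.7-fold higher (adjusted p = 0.00548), the bound being taken against the lowest detected signal of each wild-type array. NHD13 replicate 1 was its lowest array. The calls of Hoxa5 and Hoxa7 hold. Hoxc6 was called without any of the wild-type arrays and had no value without any of the NHD13 arrays.

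Hoxa9 and Hoxb7, picked here after their values were seen, show how uneven the family was among the NHD13 arrays. Hoxa9, a HOX gene central to many leukaemias, read 7.52, 9.41 and 5.94 on the NHD13 arrays and was undetected on the wild-type arrays (at least 3.67-fold higher, adjusted p = 0.0621, not called). Hoxb7 read 8.68, 9.41 and 6.53 on the NHD13 arrays and was undetected in wild-type cells (at least 5.5-fold higher, adjusted p = 0.0164). For both, NHD13 replicate 3 was the lowest of the transgenic arrays, while for Hoxc6 it was the highest. Among the cofactors that bind DNA with HOX proteins, Pbx3 read 9.997, 10.83 and 9.61 in NHD13 cells and was undetected in wild-type cells (at least 21.1-fold higher, adjusted p = 4.55e-04). Eya1, a phosphatase and coactivator of homeodomain proteins, read 8.80, 8.89 and 8.6 in NHD13 cells and was likewise undetected in wild-type cells (at least 8.09-fold higher, adjusted p = 1.68e-04). Of the 7 measured cofactor genes, 2 of which passed the filter only through the NHD13 arrays, 3 were called higher and 1, Pknox1, lower, with 1 higher call left without NHD13 replicate 1 or 3 and 2 without NHD13 replicate 2.

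Lyl1 and Lmo2 stood among a group of progenitor transcription factors of which 8 of 13 measured members were called higher and 1 lower, with a median log2 change of 1.38 and 1 member, Gata2, that passed only through the NHD13 arrays. The count of higher calls was 5 without NHD13 replicate 2, 5 without wild-type replicate 4 and 4 without wild-type replicate 6. Hhex, a homeobox factor of early progenitors, read 11.84, 12.32 and 12.55 on the NHD13 arrays and 8.51, 8.64 and 8.23 on the wild-type arrays (3.78 ± 0.23 SE, adjusted p = 3.53e-04). Nfe2, best known from megakaryocytes and red cell precursors, read 13.17, 13.51 and 13.08 on the NHD13 arrays and 9.92, 10.09 and 9.47 on the wild-type arrays (3.43 ± 0.22 SE, adjusted p = 4.33e-04). Neither gene's groups overlapped, and both calls hold. Gata2, a stem-cell zinc finger factor named here after its values were seen, was undetected in wild-type cells and read 7.57, 8.28 and 10.79 in NHD13 cells (at least 8.78-fold higher, adjusted p = 0.0135), again with a single array well above the others. The exception was Bcl11a, a zinc finger factor of early lymphoid progenitors, at 5.56, 6.74 and 5.41 on the NHD13 arrays and 8.15, 8.46 and 7.73 on the wild-type arrays (log2 change -2.21, adjusted p = 0.0107, and 0.0553 without wild-type replicate 4).

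Among 11 measured surface receptors of progenitors, 4 were called higher and 1 lower. Kit, the receptor for stem cell factor, read 12.83, 13.84 and 13.10 on the NHD13 arrays and 10.92, 10.82 and 10.57 on the wild-type arrays (2.49 ± 0.28 SE, adjusted p = 0.00257). Cd93, a receptor of early progenitors, was 6.29-fold higher (adjusted p = 0.0031), and Cd48, a SLAM-family adhesion receptor, 3.34-fold higher (adjusted p = 0.00429). The calls of Kit, Cd93 and Cd48 hold. Csf2ra, a chain of the GM-CSF receptor, was called lower (log2 change -1.72, adjusted p = 0.0452), but lost its call without NHD13 replicate 3 or without any of the wild-type arrays (adjusted p of 0.103 to 0.135). In the fetal growth list, Igf2bp3, an RNA-binding protein of fetal blood progenitors, read 11.34, 10.83 and 10.65 on the NHD13 arrays and 7.0, 7.90 and 8.12 on the wild-type arrays (3.27 ± 0.33 SE, adjusted p = 0.00204). Lin28b, a regulator of let-7 microRNAs in fetal progenitors, was undetected in wild-type cells and at least 2.21-fold higher in NHD13 cells (adjusted p = 0.00535, and 0.197 in the 12-array fit).

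**Figure D3:**
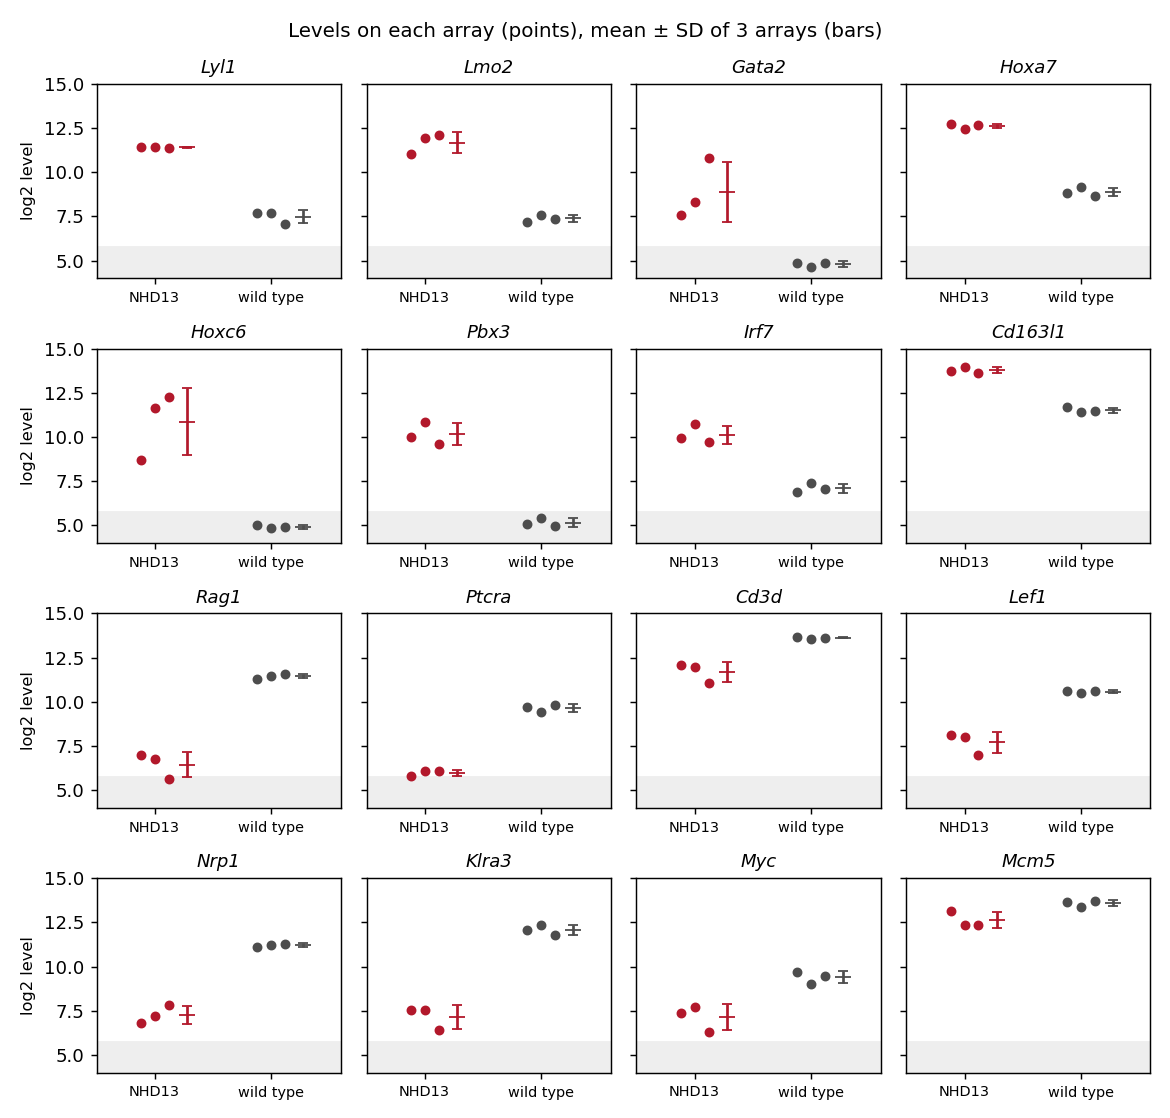
Log2 level of 16 genes on each of the 3 NHD13 arrays (red) and 3 wild-type arrays (grey), with mean ± SD beside the points; the shaded band marks levels under the highest of the 6 array-wise lowest detected levels. The NHD13 points lie above the wild-type points in the first 8 panels and below them in the last 8. Gata2 and Mcm5 were chosen after their values were seen.

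The genes that make and test the T-cell receptor were lower at specific points and not as a block. Rag1, a subunit of the recombinase, read 6.97, 6.77 and 5.63 on the NHD13 arrays and 11.31, 11.47 and 11.55 on the wild-type arrays (-4.99 ± 0.35 SE, adjusted p = 4.79e-04), and was detected on 2 of the 3 NHD13 arrays. Ptcra, the invariant chain of the pre-T-cell receptor, read 5.80, 6.07 and 6.09 on the NHD13 arrays and 9.73, 9.41 and 9.85 on the wild-type arrays (-3.68 ± 0.18 SE, adjusted p = 2.15e-04). Both sets of arrays were far apart and both calls hold. Cd3d, a CD3 chain, read 12.10, 11.96 and 11.05 on the NHD13 arrays and 13.65, 13.58 and 13.63 on the wild-type arrays (-1.92 ± 0.28 SE, adjusted p = 0.00645), whereas Cd3e was level between the groups; in the 12-array fit Cd3d was not called (adjusted p = 0.177). Dntt, the polymerase that adds bases at receptor junctions, was 1.89-fold lower (adjusted p = 0.0363) and lost its call without 5 of the 6 arrays in turn, NHD13 replicate 1 being the exception. In all, 2 of 7 measured recombination genes and 2 of 6 measured pre-T-cell receptor and CD3 genes were called, all lower. Rag1 alone of the recombination genes was called without wild-type replicate 4, 5 or 6 or NHD13 replicate 2 or 3.

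Of 17 measured signalling components downstream of the receptor, 7 were called higher and 1 lower (median log2 change 0.48, background 12.2% and 12.8%), but 2 higher and none lower with all 12 arrays in one fit, and 5 higher and 3 lower against wild-type replicates 1 to 3. Cd6, a co-receptor of the CD5 family, was 2.43-fold higher (adjusted p = 0.00542), Prkcq, the protein kinase C isoform of T cells, 1.96-fold higher (adjusted p = 0.00746), and Zap70, the kinase recruited by CD3 chains, 1.58-fold higher (adjusted p = 0.0179). Cd28, a costimulatory receptor, was 2.27-fold lower (adjusted p = 0.0305). In the 12-array fit Cd6, Prkcq and Zap70 were not called (adjusted p of 0.412, 0.211 and 0.701 in that order). The count of higher calls was 3 without NHD13 replicate 3, 1 without wild-type replicate 4, 2 without wild-type replicate 5 and 1 without wild-type replicate 6.

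Of 19 measured T-lineage transcription factors, 1 was called higher and 4 lower (background 12.2% and 12.8%), and the median change of -0.06 turned to 0.04 under median scaling. Without NHD13 replicate 1 there were 6 higher calls, and 2 lower calls were left without NHD13 replicate 2 or any of the wild-type arrays. Lef1, the HMG-box partner of Wnt signalling in thymocytes, read 8.10, 8.01 and 7.0 on the NHD13 arrays and 10.60, 10.50 and 10.64 on the wild-type arrays (-2.88 ± 0.30 SE, adjusted p = 0.00221, and 0.0699 in the 12-array fit). Ikzf3, which encodes Aiolos, was 3.16-fold lower (adjusted p = 0.00708). Tox, an HMG-box factor of selected thymocytes, was 2.2-fold higher (adjusted p = 0.00891, and 0.0549 without wild-type replicate 6). Other commitment factors, Gata3, Bcl11b, Runx1 and Ets1 among them, were not called. The E proteins, which Lyl1 and Lmo2 complexes bind, did not move together. Tcf4, which encodes E2-2, read 12.49, 13.12 and 13.29 on the NHD13 arrays and 10.73, 11.13 and 10.95 on the wild-type arrays (2.03 ± 0.24 SE, adjusted p = 0.00329). Tcf3, which encodes E2A, was 1.66-fold lower (adjusted p = 0.0323), but not called without NHD13 replicate 2 or 3 or any wild-type array, and against wild-type replicates 1 to 3 its log2 change was 0.09.

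Genes of the Notch pathway were called in both directions, the lower share being near that of all genes. Of 15 measured, 1 of which (Lfng) passed only through the NHD13 arrays, 6 were called higher (40%) and 2 lower (13.3%). The background was 12.2% and 12.8%. There were 3 higher calls without NHD13 replicate 3, 2 without wild-type replicate 4 and 3 without wild-type replicate 6. Dtx1, a Notch target that encodes an E3 ligase, read 10.85, 11.47 and 11.32 on the NHD13 arrays and 9.97, 9.71 and 9.83 on the wild-type arrays (1.38 ± 0.20 SE, adjusted p = 0.00597). Lfng, a glycosyltransferase that modifies Notch receptors, was undetected in wild-type cells and at least 2.23-fold higher in NHD13 cells (adjusted p = 0.00486). The call of Dtx1 holds. Lfng was called without any of the wild-type arrays and had no value without any of the NHD13 arrays. Notch3 was 2.3-fold lower (adjusted p = 0.00609). Myc, a growth regulator that Notch1 induces in thymocytes, read 7.39, 7.74 and 6.32 on the NHD13 arrays and 9.68, 9.05 and 9.50 on the wild-type arrays (-2.26 ± 0.38 SE, adjusted p = 0.00976, and 0.0538 and 0.0548 without wild-type replicate 4 or 6). Notch1 itself and Hes1 were not called.

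Genes of migration were also called in both directions. Of 13 measured homing and egress genes, 6 were called higher (46.2%) and 2 lower (15.4%). The background was 12.2% higher and 12.8% lower, so the lower share was near that of all genes. Klf2, the factor that permits thymocytes to leave, read 13.16, 13.74 and 12.90 on the NHD13 arrays and 10.69, 10.93 and 10.70 on the wild-type arrays (2.5 ± 0.24 SE, adjusted p = 0.00165). Itgb7, the integrin beta chain of gut homing, was 5.05-fold higher (adjusted p = 0.00177). Cxcr3, a chemokine receptor of effector and innate-like T cells, read 6.30, 7.56 and 6.58 on the NHD13 arrays and 9.15, 9.57 and 9.10 on the wild-type arrays (-2.46 ± 0.34 SE, adjusted p = 0.00508). All of these calls hold. Nrp1, a semaphorin and VEGF co-receptor, was among the largest falls of the comparison, at 6.83, 7.19 and 7.82 on the NHD13 arrays and 11.09, 11.25 and 11.29 on the wild-type arrays (-3.93 ± 0.26 SE, adjusted p = 4.63e-04), and its other 2 probes also fell.

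Cytokine receptors and the JAK-STAT pathway moved upward, with 9 of 21 measured genes called, all higher (median log2 change 0.73). The higher genes spanned receptors, kinases, STATs and STAT targets. Il10ra, the interleukin-10 receptor, read 11.67, 12.40 and 12.07 on the NHD13 arrays and 9.33, 8.99 and 9.07 on the wild-type arrays (2.92 ± 0.22 SE, adjusted p = 0.0007). Stat4 was 2.61-fold higher (adjusted p = 0.0062), and Cish, a feedback inhibitor induced by STAT5, 2.57-fold higher (adjusted p = 0.00319). The calls of Il10ra, Stat4 and Cish hold, while the list's count was 3 without wild-type replicate 4, 5 without wild-type replicate 5 and 3 without wild-type replicate 6.

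Interferon-response genes had the highest share of higher calls of the 49 lists. Of 30 genes, 24 were measured and 22 were called, all higher, against 12.2% of all genes called higher, and the median log2 change was 1.79. The 2 genes not called, Stat2 and Bst2, each had a log2 change of 0.56. Oas2, which makes the 2-5A activator of RNase L, read 10.53, 12.47 and 11.49 on the NHD13 arrays and 6.97, 7.82 and 7.09 on the wild-type arrays (4.2 ± 0.49 SE, adjusted p = 0.00305). Irf7, the amplifier of type I interferon responses, read 9.93, 10.72 and 9.73 on the NHD13 arrays and 6.86, 7.38 and 7.07 on the wild-type arrays (3.02 ± 0.29 SE, adjusted p = 0.00165). Mx2, an antiviral GTPase, was 7.97-fold higher (adjusted p = 0.00104), and Oasl1 7.09-fold higher (adjusted p = 0.00184). The groups of these 4 genes did not overlap and their calls hold. On every NHD13 array the list's mean stood above the wild-type mean, by 1.84, 2.43 and 1.7 on the log2 scale. The count of higher calls was 13 without wild-type replicate 4 and 13 without wild-type replicate 6.

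Interferon-activated factors, the IRF proteins and ISGF3, are known to bind an upstream element with the core GAAANNGAA. In the promoters of RefSeq (GRCm38.p6, 250 bases before to 50 after the start), 10 of the 18 promoters found for 15 of the 24 measured genes held that core on either strand (55.6%), against 7.03% of the 9893 promoters of all genes tested. The 140 bases before the start of 4 called genes were picked after their values were seen and are shown to give the element in place, each on the strand of its gene, with the core (or its reverse complement) in capitals where matches overlap as 1 run. They lie at chr4:156200819-156200958 (Isg15), chr5:120777660-120777799 (Oas3), chr12:26456453-26456592 (Rsad2) and chr7:104465194-104465333 (Trim30a), all on the minus strand.
Isg15: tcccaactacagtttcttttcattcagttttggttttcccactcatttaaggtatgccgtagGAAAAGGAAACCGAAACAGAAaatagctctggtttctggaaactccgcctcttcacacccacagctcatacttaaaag
Oas3: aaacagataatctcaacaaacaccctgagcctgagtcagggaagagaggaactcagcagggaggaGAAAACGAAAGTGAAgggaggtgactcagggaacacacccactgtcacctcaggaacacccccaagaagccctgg
Rsad2: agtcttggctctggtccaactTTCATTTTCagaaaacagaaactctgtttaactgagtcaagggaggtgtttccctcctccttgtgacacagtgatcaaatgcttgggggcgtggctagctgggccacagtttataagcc
Trim30a: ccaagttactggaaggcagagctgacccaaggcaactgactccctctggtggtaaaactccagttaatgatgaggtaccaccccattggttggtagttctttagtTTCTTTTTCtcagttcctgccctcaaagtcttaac
Isg15, a ubiquitin-like modifier, holds 3 copies and read 12.29, 11.94 and 11.08 on the NHD13 arrays and 7.98, 9.10 and 8.30 on the wild-type arrays (3.31 ± 0.40 SE, adjusted p = 0.00333). Rsad2, the antiviral enzyme viperin, holds 1 copy on the reverse strand and was 6.84-fold higher (adjusted p = 0.00287). A match is a description of these letters and no evidence of a bound factor.

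MHC class I presentation, which interferons also raise, was higher by smaller steps: 11 of 18 measured genes were called, all higher, with a median log2 change of 0.84. Nlrc5, the transactivator of class I genes, was 2.88-fold higher (adjusted p = 0.00937), H2-T23, a non-classical class I chain, 2.31-fold higher (adjusted p = 0.00985), and the classical chain H2-K1 2.17-fold higher (adjusted p = 0.00986). In the 12-array fit Nlrc5 and H2-K1 were not called (adjusted p of 0.202 and 0.118). H2-K1 was also not called against wild-type replicates 1 to 3 (adjusted p = 0.110). B2m, the invariant light chain, was not called (log2 change -0.07). Without wild-type replicate 4 or 6 a single gene of the list passed, and without NHD13 replicate 3 there were 7. In the MHC class II region, H2-Ob, a chain of the class II modulator H2-O, read 10.96, 12.12 and 12.18 on the NHD13 arrays and 7.85, 8.19 and 7.45 on the wild-type arrays (3.92 ± 0.37 SE, adjusted p = 0.00157), while none of the class II genes in the dendritic list was called.

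Genes of DNA replication and nucleotide synthesis were lower almost throughout. Of 45 genes, 43 were measured and 33 were called, all lower, against 12.8% of all genes called lower, and 42 of the 43 changes were negative, with a median of -1.10. The NHD13 arrays differed in depth of the fall: the list's mean deviation from the wild-type mean was -0.54, -1.33 and -1.48 log2 units on replicates 1, 2 and 3. Gins1, a subunit of the replicative helicase, read 9.95, 8.72 and 8.81 on the NHD13 arrays and 10.92, 10.86 and 10.85 on the wild-type arrays (-1.72 ± 0.33 SE, adjusted p = 0.0146). Chaf1b, a chaperone that loads histones on new DNA, was 2.55-fold lower (adjusted p = 0.0152), and Rfc5, a clamp loader subunit, 2.73-fold lower (adjusted p = 0.0135), although its other probe was not called (log2 change -0.14). Mcm5, a helicase subunit named after its values were seen, read 13.16, 12.36 and 12.37 on the NHD13 arrays and 13.63, 13.38 and 13.71 on the wild-type arrays, so that even the least affected transgenic array lay below all wild-type arrays. The calls of this list depended on single arrays: 41 genes were called lower without NHD13 replicate 1, 11 without NHD13 replicate 2, 9 without NHD13 replicate 3, 6 without wild-type replicate 5 and 0 without wild-type replicate 4 or 6, while the median stayed between -1.45 and -0.91. Under median scaling 17 were called lower, and the list's median relative to that of all genes was -1.04, against -1.05 in the main setting.

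Many replication genes carry sites for E2F factors, the transcription factors that RB holds in check before S phase. The motifs TTTCGCGC, TTTGGCGC or TTTCCCGC, on either strand, stood in 14 of the 44 promoters found for 36 of the 43 measured genes (31.8%), against 3.69% of the promoters of all genes tested. They stood in 6.91% of promoters of genes called lower and in 1.65% of those of genes called higher. The 140 bases before the start of 3 called genes, at chr4:108579314-108579453 (Orc1, plus strand), chr11:98908011-98908150 (Cdc6, plus strand) and chr1:128359706-128359845 (Mcm6, minus strand), were picked after their values were seen and are shown with the motif or its reverse complement in capitals.
Orc1: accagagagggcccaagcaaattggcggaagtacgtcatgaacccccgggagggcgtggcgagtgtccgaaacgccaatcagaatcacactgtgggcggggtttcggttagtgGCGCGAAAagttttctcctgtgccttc
Cdc6: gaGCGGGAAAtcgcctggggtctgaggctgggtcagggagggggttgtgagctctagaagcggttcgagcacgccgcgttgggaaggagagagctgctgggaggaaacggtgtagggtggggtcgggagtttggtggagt
Mcm6: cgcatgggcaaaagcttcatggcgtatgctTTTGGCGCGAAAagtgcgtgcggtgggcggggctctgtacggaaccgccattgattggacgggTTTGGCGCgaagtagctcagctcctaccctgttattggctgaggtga
In the promoter of Mcm6, a helicase subunit, 2 of the 3 matches overlap. E2f2, an activating E2F, itself read 11.07, 11.03 and 11.09 on the NHD13 arrays and 12.04, 12.05 and 12.14 on the wild-type arrays (-1.01 ± 0.13 SE, adjusted p = 0.00429, and 0.0816 in the 12-array fit), a call that holds.

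Mitosis and chromosome segregation genes fell with them: of 35 measured, 21 were called lower and 1 higher, with a median of -1.41 and mean deviations of -0.45, -1.33 and -1.78 on NHD13 replicates 1, 2 and 3. Kif23, a kinesin of cytokinesis, was 2.49-fold lower (adjusted p = 0.0202), and Mybl2, a factor of the mitotic gene programme, 2.46-fold lower (adjusted p = 0.0234). The exception was Cdc25b, the phosphatase that starts mitosis, at 9.77, 10.17 and 9.97 on the NHD13 arrays and 8.85, 8.28 and 8.67 on the wild-type arrays (1.37 ± 0.20 SE, adjusted p = 0.00647), a call that holds although a second probe was not called. The count of lower calls was 32 without NHD13 replicate 1, 4 without NHD13 replicate 3, and 0 without NHD13 replicate 2 or any of the wild-type arrays, with a median between -1.83 and -1.07. Of 22 measured G1 regulators, 5 were called lower and 2 higher (background 12.8% and 12.2%). Ccne1, cyclin E1, read 7.90, 7.38 and 7.01 on the NHD13 arrays and 9.12, 8.85 and 9.21 on the wild-type arrays (-1.63 ± 0.25 SE, adjusted p = 0.00712), and Cdkn2d, the CDK inhibitor p19, was 2.2-fold higher (adjusted p = 0.00696). The 5 lower calls became 11 without NHD13 replicate 1, 3 without wild-type replicate 5 and 2 without wild-type replicate 4 or 6.

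Genes of growth and energy supply were lower in small, even steps. All 32 measured ribosome biogenesis genes and all 30 of the mitochondrial ribosome had a negative change, 13 of each list being called lower, with medians of -0.60 and -0.62. Of 41 measured oxidative phosphorylation genes, 40 were negative and 9 called lower (median -0.49). Gnl3, the nucleolar GTPase nucleostemin, read 8.14, 8.17 and 8.0 on the NHD13 arrays and 9.37, 9.03 and 9.15 on the wild-type arrays (-1.08 ± 0.16 SE, adjusted p = 0.00576), a call that holds. Mrpl37, a protein of the mitochondrial ribosome, was 1.73-fold lower (adjusted p = 0.0135), and Ndufab1, an acyl carrier subunit of complex I, 1.96-fold lower (adjusted p = 0.00823). Cytosolic ribosomal proteins, in contrast, had a median of -0.01, with 4 of 27 called, all lower (14.8%, near the 12.8% of all genes called lower). Median scaling left 2, 1 and 2 lower calls in the ribosome biogenesis, mitochondrial ribosome and oxidative phosphorylation lists, and medians relative to that of all genes of -0.54, -0.55 and -0.50. Without wild-type replicate 4 or 6 each of these 3 lists had at most 1 lower call. The counts in the same order were 7, 3 and 1 without wild-type replicate 5, 8, 5 and 3 without NHD13 replicate 2, 8, 5 and 4 without NHD13 replicate 3, and 19, 21 and 30 without NHD13 replicate 1.

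Cholesterol synthesis had 8 of 16 measured genes called, all lower (median -0.75). Fdps, which makes farnesyl pyrophosphate, read 11.31, 10.50 and 10.77 on the NHD13 arrays and 12.75, 12.47 and 12.65 on the wild-type arrays (-1.77 ± 0.23 SE, adjusted p = 0.00445), a call that holds. Sqle, the squalene epoxidase, was 2.51-fold lower (adjusted p = 0.0127). Without wild-type replicate 4 or 6 a single gene of the list was called, and 5 without wild-type replicate 5. In glycolysis, 6 of 18 were called lower and 1 higher (3 lower without NHD13 replicate 2 or 3, 1 without wild-type replicate 5 and 0 without wild-type replicate 4 or 6), with Tpi1, triose phosphate isomerase, 2.04-fold lower (adjusted p = 0.00856). The folate-cycle enzyme Shmt1 was 2.94-fold lower (adjusted p = 0.00974). Bcat1, the enzyme that starts the breakdown of branched-chain amino acids, was among the largest falls, at 6.65, 6.19 and 5.75 on the NHD13 arrays and 10.21, 9.37 and 10.22 on the wild-type arrays (-3.74 ± 0.32 SE, adjusted p = 0.00117).

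Among chromatin regulators 3 of 25 were called higher and 5 lower, near the background of 12.2% and 12.8%, and fewer without any array but NHD13 replicate 1. Ezh2, the methyltransferase of Polycomb complex 2, was 1.75-fold lower (adjusted p = 0.0129). In cell death control, the p53-inducible BH3-only genes rose: Bbc3, which encodes PUMA, read 10.04, 9.80 and 9.79 on the NHD13 arrays and 8.06, 8.30 and 8.47 on the wild-type arrays (1.61 ± 0.17 SE, adjusted p = 0.00227), and Pmaip1, which encodes NOXA, was undetected in wild-type cells and at least 2.58-fold higher in NHD13 cells (adjusted p = 0.00591). The call of Bbc3 holds, and Pmaip1 was called without any of the wild-type arrays and had no value without any of the NHD13 arrays. Of the 21 measured p53 and DNA damage genes, 2 of which passed only through the NHD13 arrays, these were 2 of 4 called, all higher. The count of higher calls was 2 whichever array was left out, not always the same pair, and without NHD13 replicate 1 another 3 were called lower. Mdm2 and Cdkn1a, further p53 targets, were not called. Of 12 measured BCL2 family genes, 3 were called higher and 1 lower (background 12.2% and 12.8%). The higher calls were Bbc3, Pmaip1 and Mcl1, a survival member. Mcl1 lost its call without NHD13 replicate 3 or any of the wild-type arrays (adjusted p of 0.0519 to 0.0948). Bcl2a1b, another survival member, was 3.8-fold lower (adjusted p = 0.0134, and 0.0616 and 0.0635 without wild-type replicate 4 or 6).

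Markers of innate-like lymphocytes moved in opposite directions. Of 14 measured NK markers, 7 were called lower and 1 higher (4 and 1 in the 12-array fit), with Ncr1, Gzmb and Eomes detected on no array. Klra3, an inhibitory Ly49 receptor, read 7.55, 7.57 and 6.39 on the NHD13 arrays and 12.05, 12.37 and 11.79 on the wild-type arrays (-4.90 ± 0.35 SE, adjusted p = 5.03e-04). Klrb1c, which encodes NK1.1, was 5.69-fold lower (adjusted p = 4.63e-04), and Tbx21, which encodes T-bet, 3.97-fold lower (adjusted p = 0.00305). Nkg7, a granule protein shared by cytotoxic and gamma delta cells, rose 2.4-fold (adjusted p = 0.00439). The calls of these 4 genes hold. Klra genes are near-identical copies, so a probe may read more than 1 of them. The summed NK markers overlapped, at 17256 to 24647 on the NHD13 arrays and 20762 to 25989 on the wild-type arrays.

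Of 7 measured gamma delta T-cell markers, 3 were called, all higher. The changes of 5 were positive and of 2 negative, down to -0.94, and without NHD13 replicate 2 the list had 1 lower call. The summed level was 35016 to 41396 on the NHD13 arrays and 15791 to 17676 on the wild-type arrays, with Maf, Il17a, Il17f, Il23r and Il1r1 detected on no array. Cd163l1, a scavenger receptor of gamma delta cells, read 13.73, 13.95 and 13.61 on the NHD13 arrays and 11.67, 11.41 and 11.44 on the wild-type arrays (2.26 ± 0.16 SE, adjusted p = 5.37e-04). Blk, a Src-family kinase, was 2.45-fold higher (adjusted p = 0.00615). Outside the list, the gamma chain variable segment Trgv5 read 13.21, 9.13 and 12.21 on the NHD13 arrays and 7.98, 7.53 and 7.67 on the wild-type arrays (adjusted p = 0.0326, lost without NHD13 replicate 3 or any wild-type array). Cd163l1 and Blk hold their calls without any array of the 6, but not when all 12 arrays are fitted together (adjusted p = 0.0901 for Cd163l1 and 0.259 for Blk).

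Some red cell, mast cell and stromal markers were higher too, from few measured genes: 2 of 5, 1 of 3 and 2 of 4 were called, all higher. The alpha-globin gene Hba-a1 read 11.93, 13.05 and 10.30 on the NHD13 arrays and 8.18, 6.98 and 6.57 on the wild-type arrays (4.52 ± 0.72 SE, adjusted p = 0.00844), and the beta-globin gene Hbb-bt was 13.3-fold higher (adjusted p = 0.00221), while the red cell genes Car1, Slc4a1 and Epb42 were detected on no array. Globin genes are close copies, and their probes may cross-react. Cpa3, the mast cell carboxypeptidase, read 12.54, 13.31 and 13.87 on the NHD13 arrays and 10.89, 11.19 and 10.34 on the wild-type arrays (2.43 ± 0.37 SE, adjusted p = 0.00726, and 0.0899 in the 12-array fit). The summed megakaryocyte and mast cell markers were 6052 to 15120 on the NHD13 arrays and 1392 to 2442 on the wild-type arrays. Only 3 of the 12 with a probe entered this sum, and Cpa3 was the 1 called. The markers Mcpt8, Ms4a2, Tpsb2, Gata1, Pf4, Gp1bb, Vwf and Ppbp were detected on no array. Pdgfrb, a receptor of mesenchymal cells, read 10.33, 10.80 and 10.49 on the NHD13 arrays and 7.90, 7.98 and 7.71 on the wild-type arrays (2.67 ± 0.18 SE, adjusted p = 4.65e-04), with the epithelial and fibroblast genes Krt5, Krt18, Foxn1, Epcam, Psmb11, Col3a1 and Dcn detected on no array. Of 5 measured B-cell markers Pou2af1 and Cd79b were called, both higher, with sums of 3171 to 4041 on the NHD13 arrays and 1734 to 2046 on the wild-type arrays and with Pax5, Vpreb3 and Igll1 detected on no array. Without wild-type replicate 4 or 6 a single one of them was called.

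The largest changes outside these lists were spread over genes of varied function. Igfbp4, a binding protein of insulin-like growth factors, read 13.35, 14.10 and 13.72 on the NHD13 arrays and 9.99, 9.64 and 9.74 on the wild-type arrays (3.93 ± 0.22 SE, adjusted p = 2.95e-04). Angpt1, the ligand of the stem-cell receptor TIE2, read 10.07, 10.26 and 10.49 on the NHD13 arrays and 6.37, 6.76 and 6.12 on the wild-type arrays (3.86 ± 0.21 SE, adjusted p = 2.54e-04). Clec4e, the lectin receptor Mincle, was 18.2-fold higher (adjusted p = 2.08e-04), and Lcn4, a lipocalin, 23.4-fold higher (adjusted p = 4.63e-04). Groups that did not overlap were a condition of naming these genes. In all, 124 genes called higher were detected on all NHD13 arrays and no wild-type array, and 106 called lower on all wild-type arrays and no NHD13 array. By the size of the bound, Ubqlnl, a testis ubiquilin-like gene, was at least 27.9-fold higher (adjusted p = 2.15e-04), Mrvi1, a partner of the inositol trisphosphate receptor, at least 27.2-fold higher (adjusted p = 2.32e-04), and Zfpm2, a cofactor of GATA factors, at least 16.6-fold higher (adjusted p = 1.05e-04). In the other direction Dgkeos, a transcript opposite Dgke, was at least 21.7-fold lower (adjusted p = 5.94e-05), Vopp1 at least 11.6-fold lower (adjusted p = 1.69e-04) and Tdrd5, a germline Tudor protein, at least 8.61-fold lower (adjusted p = 1.68e-04). The calls of Igfbp4, Angpt1, Clec4e and Lcn4 hold. The other 6 were called whenever an array of the group in which they were undetected was left out, and had no value otherwise.

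To ask which of these differences depended on Lyl1, the change was set against that of NHD13 transgenic, Lyl1 knockout cells relative to wild-type replicates 1 to 3, which share no array with it, and the difference of the 2 changes was tested over 12 arrays. The difference was called for 1499 of 10497 genes (14.3%), 598 higher (5.7%) and 901 lower (8.58%) in the NHD13 comparison. HOX genes had positive medians in both comparisons, at 1.66 with Lyl1 and 1.43 without it over 18 genes, and the difference was called for 0 of them by limma, with 1 at an unadjusted p under 0.05. HOX genes undetected in wild-type cells could pass the filter only through arrays of fusion-carrying cells. Both medians thus follow partly from the filter and describe these 18 genes, not the family. For Hoxa7 the difference was 0.84 ± 0.34 SE (adjusted p = 0.113). Replication genes had medians of -1.13 with Lyl1 and -0.06 without it, the difference being called lower for 12 of 43 genes, and mitosis genes -1.38 and 0.10, called lower for 13 of 38. Interferon genes had medians of 1.83 and 0.49, called higher for 10 of 24. Markers of dendritic cells and MHC class II had medians of -0.39 and -2.80, called higher for 7 of 11, so that these markers of other cells, too, separated the comparisons, and their part in the other differences, that of the class II region gene H2-Ob (5.29) included, was not tested. Oxidative phosphorylation genes had medians of -0.53 and 0.18, called lower for 12 of 41.

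Single genes followed both patterns. Ptcra changed by -3.66 with Lyl1 and by 0.07 without it (difference -3.73 ± 1.02 SE, adjusted p = 0.0350), Nrp1 by -3.99 and 0.64 (difference -4.63 ± 0.41 SE, adjusted p = 2.33e-04), and Angpt1 by 3.86 and -1.73 (difference 5.60 ± 0.55 SE, adjusted p = 4.21e-04). Rag1 also differed (difference -4.60 ± 1.11 SE, adjusted p = 0.0224). Knockout replicate 1 stood apart for several of these genes: Ptcra read 6.61, 9.93 and 10.21 and Klra3 4.55, 8.18 and 11.65 on the 3 knockout arrays. The difference of Klra3 was -1.44 ± 1.80 SE (adjusted p = 0.612), but -3.21 (adjusted p = 0.0537) without that array. Of the 1163 genes called higher, 792 (68.1%) had a positive change in the knockout comparison as well and the difference was called for 331. Of the 1217 called lower, 603 (49.5%) had a negative change there and the difference was called for 507. Both sets were chosen by their call in the NHD13 comparison, which is part of the difference and uses the same arrays. The counts of 331 and 507 are raised by that choice and cannot be set against the 14.3% of all genes. Over all genes the signs matched for 51.4%. The knockout comparison differed from the other in more than Lyl1: Xist was high on 2 of its 3 knockout arrays and on none of wild-type replicates 1 to 3, against all 6 arrays of the NHD13 comparison, and its arrays are of the lower background class. The part of these in the differences was not tested. The count of 1499 also fell to 612, 619, 653, 913, 939 and 966 without wild-type replicate 4, 6 or 3, NHD13 replicate 3 or 2, or wild-type replicate 2, in that order.

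**Figure D4:**
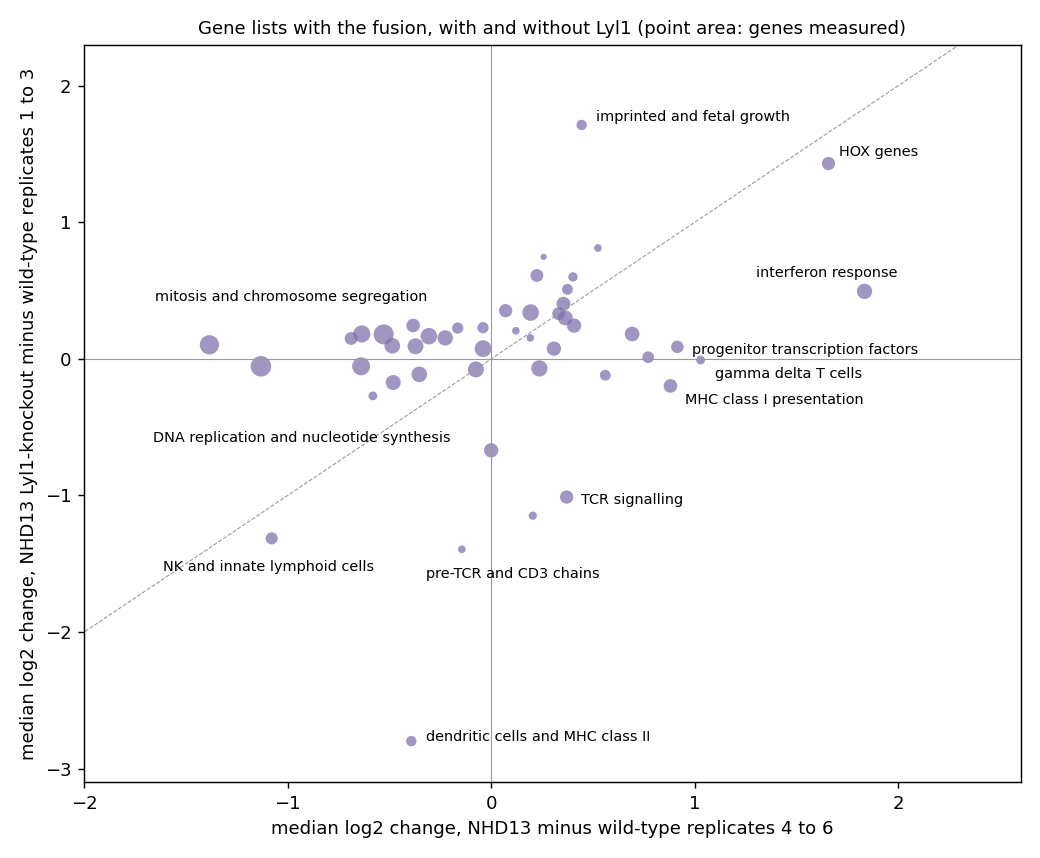
Median log2 change of each gene list in NHD13 cells against wild-type replicates 4 to 6 (x axis) and in NHD13 Lyl1-knockout cells against wild-type replicates 1 to 3 (y axis), 1 point a list, with an area that grows with the number of genes measured and a dashed line of equal change. HOX genes lie near the line, while mitosis and replication lie far to the left at a knockout median near 0. HOX genes undetected in wild-type cells could pass the filter only through arrays of fusion-carrying cells.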

How the data were processed

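Total RNA of sorted double-negative thymocytes was read on Illumina bead arrays, 1 array a sample. The authors deposited 1 table with a summarized intensity per probe, not normalized between arrays, and a detection p-value against each array's negative controls, as the file headers name them. Per the submitters' processing notes, BeadStudio and limma were used, with no version given. A second deposited table of the authors holds normalized log2 values, with no statement of how they were normalized (not given in the sources used here). It served as an alternative, and its values correlated with those used here at 0.999 over probes.

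Intensities were background-corrected and normalized between the 6 arrays with limma 3.58.1 in R 4.3.3 (neqc, offset 16), taken to log2, filtered to probes detected at a p under 0.05 on at least 3 of the 6 arrays, fitted with lmFit and eBayes, and adjusted over the 17885 kept probes by Benjamini-Hochberg, with calls at an adjusted p under 0.05. A gene stands for its brightest probe: 34885 probes had 1 symbol, 18 several and 10378 none, and of 3702 genes with several kept probes 810 had probes that differed in their call and 5 had opposite calls. Where a gene was undetected on every array of a group, the fold is a lower bound against the lowest detected signal of each array. For the difference with and without Lyl1, all 12 arrays were normalized together and probes detected on at least 3 of them were fitted. The number of arrays limits the precision: in simulated data for this comparison with 50 probes planted at each size, 38% of 2-fold, 72% of 4-fold, 90% of 8-fold and 98% of 16-fold changes were recovered, and 6 of 155 calls were false. The real comparison called 4066 probes, so its threshold on the unadjusted p was less strict and these shares do not carry over to it.

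Genes were named by a rule: the 15 largest rises and the 15 largest falls among called genes detected on all 6 arrays with groups apart, the 8 largest bounds each way among genes detected in only 1 group, up to 3 called members each way of each list by smallest p, Lyl1, Lmo2, Nup98 and Hoxd13, and the brightest marker of each other cell type. Any other gene named was chosen after its values were seen. The gene lists, and the choice of the comparison itself, were made with earlier results of these data known. Promoters come from RefSeq (GRCm38.p6). Alternatives changed the scaling, background correction, filter, prior, probe rule, wild-type arrays and the arrays left out.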

Additional observations from a re-analysis of the deposited data

Results flagged for a closer look

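The change in NHD13 cells differed from that in NHD13 Lyl1-knockout cells for 1499 genes by the test of the difference itself (limma, Benjamini-Hochberg, 12 arrays). Of the 47 genes named for the largest changes or as the subject of the study, 19 were among them, against 14.3% of all genes. Of these, 11 had a higher and 8 a lower change where Lyl1 was present, and 18 of the 19 were still called without knockout replicate 1. Most of the 47 were chosen for a large change in NHD13 cells, which is itself part of the tested difference. Their share and the directions below follow partly from that choice and are a description only. Groups of 3 arrays were not tested for single arrays that stand apart.

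The differences that ran upward, in log2 units, were those of genes higher in NHD13 cells. Lyl1 itself had a difference of 6.45 (adjusted p = 7.55e-07), from changes of 3.97 in the NHD13 comparison and -2.48 in the knockout comparison. The check on the knockout is the change of -2.48 (adjusted p = 5.29e-05). The difference was 5.60 for Angpt1 (adjusted p = 4.21e-04), 5.46 for Ubqlnl, 5.29 for H2-Ob (adjusted p = 3.09e-04), 4.79 for Mrvi1 and 4.37 for Hba-a1 (adjusted p = 0.0359, and 0.0518 without knockout replicate 1). It was 3.68 for Oas2, 3.60 for Igfbp4, 3.02 for Stx3, 2.69 for Clec4e and 2.56 for Lcn4. Of these, H2-Ob, Angpt1 and Lyl1 had a negative change in the knockout comparison, at -1.30, -1.73 and -2.48, while the others had a positive one.

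The differences that ran downward were those of genes lower in NHD13 cells. The difference was -4.63 for Nrp1 (adjusted p = 2.33e-04), -3.78 for Tdrd5, -3.73 for Ptcra (adjusted p = 0.0350), -3.66 for Bcat1 and -3.63 for Tmem238 (adjusted p = 3.93e-04). It was -3.55 for Vopp1, -2.84 for Afdn and -2.06 for Sapcd1. The knockout change was between -0.87 and 0.64 for these 8 genes.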

How the results depend on the processing

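Leaving out 1 array at a time gave 549 to 3324 genes called (386 to 1474 higher, 163 to 1850 lower) and 919 to 5743 probes called (623 to 2496 higher, 296 to 3247 lower), the lowest counts without wild-type replicate 6 and the highest without NHD13 replicate 1. For the difference with and without Lyl1 the counts were 612 to 2151 genes (280 to 811 higher, 320 to 1361 lower), and 1369 lower under median scaling; leaving out arrays other than knockout replicate 1 was chosen after seeing the data. Median scaling gave 895 probes and 496 genes called lower. The other settings gave 1941 to 3201 genes called, within 1.5 times the main count. For the 193 named genes, 2768 of 3173 alternative values kept direction and side of the threshold, 401 lost the call, 2 gained it, and 2 reversed: against wild-type replicates 1 to 3, Tcf3 had a log2 change of 0.093 and Cd79b of -0.20. The cause was not tested. Named calls kept were 95 of 178 without wild-type replicate 4, 136 of 178 without replicate 5 and 93 of 178 without replicate 6. With all 12 arrays in one fit 150 of 189 named calls were kept. Of 833 list medians 699 moved by less than 1 SD, the SD being that of the list's mean deviation over the NHD13 arrays. That SD is no error of the median. It is wide where the NHD13 arrays differed, as in the neutrophil and immediate early lists, so a shift there was rarely counted. No paired analysis was possible because wild-type replicates 4 to 6 share no replicate number with NHD13 replicates 1 to 3. Genes near background have bounds instead of folds. In the simulated data, where far fewer probes changed than were called here, 38% of 2-fold changes were recovered.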

Other observations

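Genes that changed the same way lay side by side at several places of the genome. Taking measured genes in RefSeq order, 18 runs of at least 4 neighbours were called in 1 direction, as a description with no test. The longest, 10 genes on chromosome 6, was lower in NHD13 cells and spans the NK receptor cluster from Klrk1 to Ybx3, with log2 changes from -4.90 to -0.61. On chromosome 7 a run of 8 genes, higher in NHD13 cells by 0.87 to 6.31, holds the olfactory receptor genes Olfr643 and Olfr644, the ubiquilin genes Ubqln5 and Ubqlnl, Olfm5, and the antiviral genes Trim6, Trim34a and Trim30a. A run of 7 on chromosome 5 holds Dtx1 and the Oas genes (0.86 to 4.2), and a run of 6 on chromosome 7 holds Ifitm1, Ifitm2 and Ifitm3 (0.59 to 1.62). On the X chromosome 6 neighbours of the Bex and Tceal families were lower (-2.36 to -0.68). In the HOXA region, Hoxa2 and Hoxa3 were higher together with their neighbours Skap2 and Snx10 (0.99 to 2.87). Genes of these families are close copies, and probes may read more than 1 of them.

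Other lists held fewer calls. Of 26 measured lysosome and autophagy genes 7 were called higher and 2 lower, and of 20 integrin and adhesion genes 5 and 2 (background 12.2% higher and 12.8% lower). Without wild-type replicate 4 or 6 the higher calls were 1 and 2. Of 20 immediate early genes 4 were called, all higher, with Ier3, an early response gene, at 9.52, 10.01 and 10.37 on the NHD13 arrays and 7.87, 7.88 and 7.51 on the wild-type arrays (log2 change 2.21, adjusted p = 0.00262, and 0.0706 in the 12-array fit). Without NHD13 replicate 3, the array with the high Fos level, 4 were called higher and 7 lower. Of the 2380 called genes, 318 stood in any of the 49 lists and 2062 in none.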
